A study of Mus musculus with 32 samples.

Results

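The genes described here form the antigen presentation and interferon-gamma module: 37 genes chosen by name of the 20145 genes that the array probes could be named for. They fall into 5 MHC class I genes, 11 genes of class I peptide supply and loading, 9 MHC class II genes, 8 interferon-inducible GTPases, and 4 regulatory or signalling genes. All 37 have a probe, and 36 were well above background on every one of the 32 arrays; the exception is H2-Ob.

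The tumours were grown from 4T1-Luc, a luciferase-marked Balb/c mammary carcinoma line, in a mammary fat pad of 8-week-old female Balb/C mice. From 1 week after implantation the mice received sunitinib, an inhibitor of the VEGF and PDGF receptor kinases, at 40 mg/kg, or vehicle (PBS with DMSO). All tumours were digested with collagenase in the presence of actinomycin D, and RNA was measured on single-colour Agilent arrays. At 1300 mm3 each tumour gave 2 samples, a fraction bound to anti-PECAM-1 beads (EC fraction) and the digested tissue left behind (bulk).

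At that size there were 4 sunitinib mice labelled sensitive up to day 8, 4 sunitinib mice labelled resistant, and 4 vehicle mice, each with an EC and a bulk array. Bulk tumours resected at day 9 or at 600 mm3 gave 2 sunitinib and 2 vehicle arrays at each stage. Every group carries the same tumour line, so that none is a tumour-free control. Balb/C mice have other alleles at the MHC loci than the reference strain whose transcripts name the probes, and the effect of mismatches on the signal was not tested.

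MHC class I molecules show peptides made inside the cell to CD8 T cells. Their heavy chains pair with beta-2 microglobulin (B2m), and their peptides are cut by the immunoproteasome and carried into the endoplasmic reticulum by the TAP transporter. MHC class II molecules, found mainly on macrophages, dendritic cells and B cells, show peptides taken up from outside the cell to CD4 T cells. Interferon-gamma, made mainly by T and NK cells, raises both routes through IRF1 and through the transactivators NLRC5 for class I and CIITA for class II. Endothelial cells can be induced to show both classes.

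Promoter sequence is shown for members whose proximal bases hold the motifs these factors are known to bind, because all matched GTPases hold the first of them. RefSeq promoters (build GRCm38.p6, 250 bases before to 50 after the gene start) matched 29 of the 37 members. The interferon-stimulated response element was searched as GAAA, any 2 bases and GAAA, and the interferon-gamma activated site as TTCNNNGAA, each on both strands. The first was found in 6 of 6 matched GTPases and 11 of 29 members, against 3.99% of all genes with a promoter in the table. The second was found in 3 of 6 GTPases and 7 of 29 members, against 9.55% of genes. Irgm2, Igtp and Tgtp1 hold the second motif 11 bases before the first, counted from start to start. The 120 or 160 bases up to the gene start are printed 5′ to 3′ on the gene's strand, with motif bases in capitals. Irgm2 lies at chr11:58214857-58214976, plus strand. Igtp lies at chr11:58199436-58199555, plus strand. Tgtp1 lies at chr11:48992247-48992366, minus strand. Gbp2, a guanylate-binding protein, lies at chr3:142620543-142620662, plus strand. B2m lies at chr2:122147527-122147686, plus strand. Irf1, itself a target and a transcription factor, lies at chr11:53769894-53770013, plus strand.
Irgm2: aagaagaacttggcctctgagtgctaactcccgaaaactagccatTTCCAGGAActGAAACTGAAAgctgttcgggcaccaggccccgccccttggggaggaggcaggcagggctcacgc
Igtp: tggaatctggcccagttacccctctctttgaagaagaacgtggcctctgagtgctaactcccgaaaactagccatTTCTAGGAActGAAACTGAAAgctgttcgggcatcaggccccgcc
Tgtp1: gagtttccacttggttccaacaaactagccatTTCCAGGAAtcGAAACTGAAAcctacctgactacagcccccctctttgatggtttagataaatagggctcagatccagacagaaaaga
Gbp2: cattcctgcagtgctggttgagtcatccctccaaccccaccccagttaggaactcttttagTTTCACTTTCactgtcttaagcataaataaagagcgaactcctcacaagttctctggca
B2m: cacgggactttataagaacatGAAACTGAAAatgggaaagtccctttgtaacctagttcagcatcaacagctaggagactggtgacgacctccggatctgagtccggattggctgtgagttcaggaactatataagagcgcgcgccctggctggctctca
Irf1: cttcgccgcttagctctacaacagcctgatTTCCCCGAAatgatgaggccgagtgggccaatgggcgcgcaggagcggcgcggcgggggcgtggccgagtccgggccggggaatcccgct

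Class II promoters are known for an X box and a CCAAT (Y) box, the sites of the RFX and NF-Y complexes on which CIITA assembles. With the X box written strictly, as CCNAG, any 2 bases, AC, any 2 bases and ATG, H2-DMb1 and H2-Ob of 6 matched class II members held it on either strand, against 0.229% of genes. CCAAT was found in 6 of 6 class II members and 19 of 29 members, against 41.1% of genes. H2-Aa has the CCAAT box without a match to this X box string, which says only that these letters are not in the window. H2-DMb1 lies at chr17:34153071-34153190, plus strand. H2-Ob lies at chr17:34238785-34238904, plus strand. H2-Aa lies at chr17:34287824-34287943, minus strand.
H2-DMb1: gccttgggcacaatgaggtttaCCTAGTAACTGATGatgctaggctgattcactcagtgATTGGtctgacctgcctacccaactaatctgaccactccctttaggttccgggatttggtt
H2-Ob: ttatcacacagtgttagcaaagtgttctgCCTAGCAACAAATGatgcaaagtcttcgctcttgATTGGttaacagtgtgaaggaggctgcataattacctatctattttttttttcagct
H2-Aa: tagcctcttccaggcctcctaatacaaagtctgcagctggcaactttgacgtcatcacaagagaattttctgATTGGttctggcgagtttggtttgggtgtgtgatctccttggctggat
Of the 37 members, 16 lie on chromosome 17, between bases 33919478 and 37274485 of that build, where the mouse MHC is found. These matches describe the sequence, and no binding was measured.

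Values are the log2 processed signal of a gene's probe minus the 75th percentile of its array, called relative log2 signal here and compared only within a probe. Differences are in the same log2 units, with limma's standard error (SE) and a Benjamini-Hochberg adjusted p over all genes of the comparison; a gene is called at an adjusted p under 0.05. Fewer probes were bright in resistant EC: 46.1% to 53.0% of them were called well above background there, against 79.9% to 86.4% for sensitive and 80.4% to 82.2% for vehicle mice. In bulk it was 55.3% to 58.8% on 3 resistant arrays and 83.5% on that of resistant mouse 2, against 65.7% to 82.4% for sensitive and vehicle mice. All 8 resistant arrays shared a slide that held no other array, so resistance cannot be told apart from the slide, and the smaller tumours likewise had a slide of their own. The EC arrays carried macrophage as well as endothelial RNA: 11 of 11 macrophage and 12 of 12 endothelial markers were higher in EC than in bulk, with median differences of 2.48 and 4.61. Tumour epithelial RNA was there too, as all 10 markers were well above background on every EC array. Their mean level was 1.83 to 4.28 in EC and 3.55 to 5.28 in bulk. The part of these markers in the member values was not tested.

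**Figure D1:**
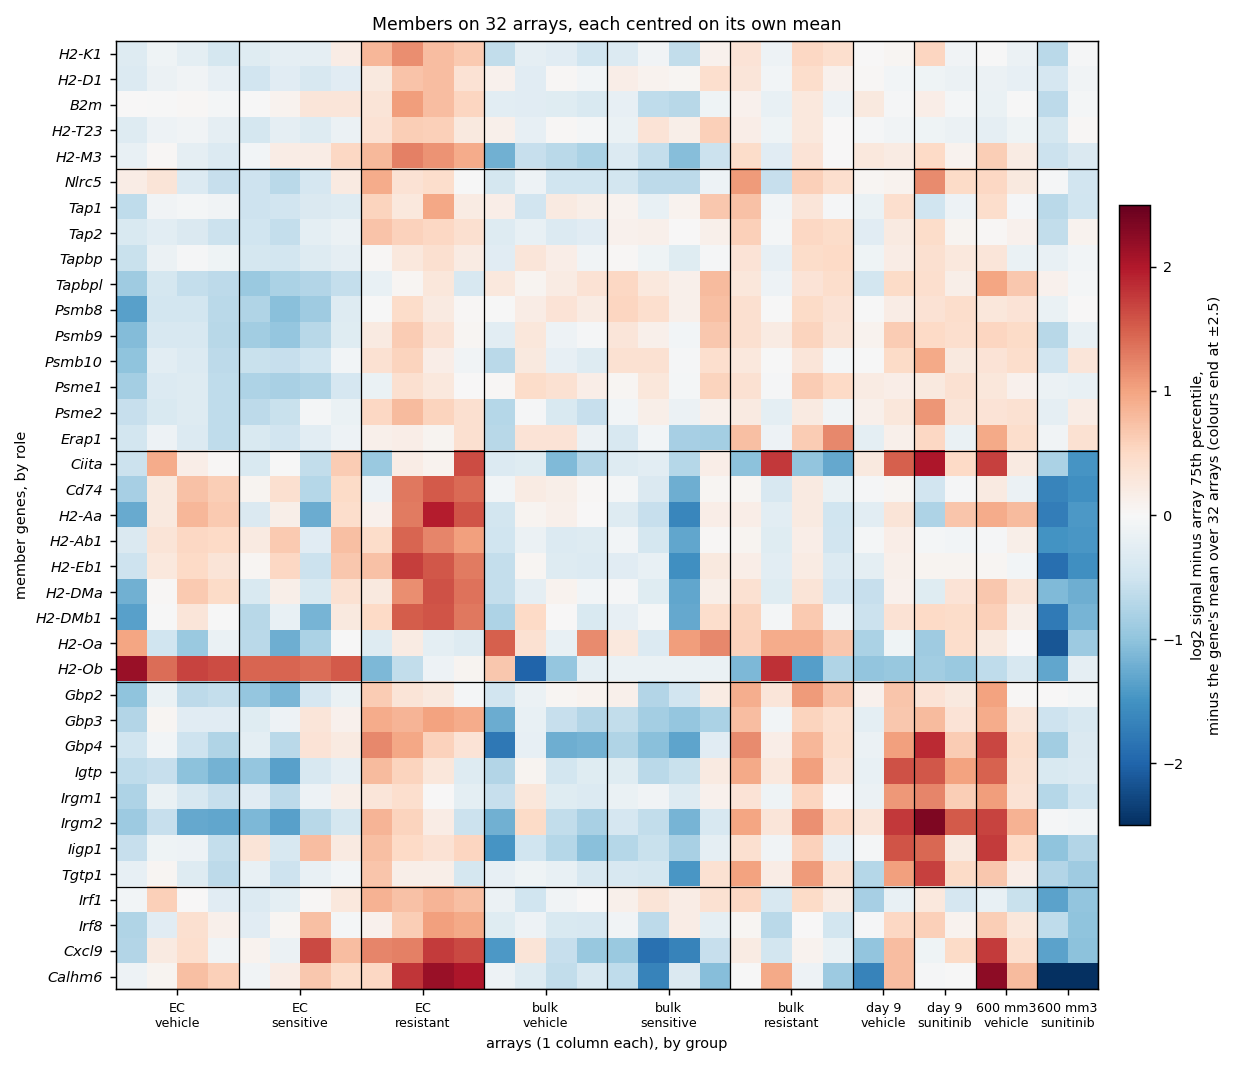
Relative log2 signal of the 37 members (rows, by role) on the 32 arrays (columns, by group), centred on each gene's mean over all arrays. EC resistant mice had the highest group mean for 18 members, and the 600 mm3 sunitinib tumours the lowest for 14.

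The members differed in how much they varied within groups. The median within-group SD was 0.22 for the class I genes, 0.25 for peptide supply and loading, 0.48 for the GTPases, 0.50 for the regulatory and signalling genes and 0.57 for class II. The highest group mean was that of EC resistant mice for 18 members and that of the day 9 sunitinib tumours for 10. It was that of the 600 mm3 vehicle tumours for 4, bulk resistant for 3, and EC vehicle and bulk sensitive for 1 each.

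The EC fraction of resistant tumours carried more relative log2 signal for most of the module than that of vehicle tumours. The 75th percentile signal of the arrays was itself lower there, 242 to 403 against 608 to 911 in vehicle EC. A rise in relative signal is therefore not shown to be a rise in unscaled signal. Of the 37 members 30 rose and 1 fell; of all 17956 genes tested, 23% rose and 26.3% fell. The median difference was 0.84 over the members and 0.10 over all genes. All 5 class I genes, 10 of 11 peptide supply genes, 7 of 8 GTPases and all 4 regulatory and signalling genes rose, but only 4 of 9 class II genes. All 37 passed the filter on dim probes. The count depends on the scaling, as given after the member values.

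Among class I genes H2-K1, a classical heavy chain, stood at 7.74, 7.94, 7.803 and 7.62 in EC of vehicle mice, 7.76, 7.83, 7.83 and 8.24 in sensitive and 8.88, 9.21, 8.82 and 8.71 in resistant mice. The resistant arrays lay above all 8 others. H2-K1 was 1.13 ± 0.16 higher than in vehicle mice (2.19-fold, adjusted p = 9.41e-05, limma) and 0.99 ± 0.16 higher than in sensitive mice (adjusted p = 2.76e-04). A second H2-K1 probe gave 0.53 against vehicle. B2m, the shared light chain, stood at 8.05, 8.04, 8.08 and 8.00 in vehicle, 8.04, 8.14, 8.35 and 8.35 in sensitive and 8.38, 9.09, 8.83 and 8.59 in resistant mice. All resistant arrays were above the vehicle arrays. B2m differed by 0.68 ± 0.16 from vehicle (adjusted p = 0.0044). H2-M3, which presents formylated peptides, rose by 1.21, H2-D1 by 0.71 and H2-T23, a ligand of inhibitory NK receptors, by 0.64. Heavy chain genes are similar in sequence, so shared hybridisation among them is uncertain.

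In peptide supply Tap1, a TAP transporter subunit, was at 1.46, 2.01, 2.04 and 2.00 in vehicle, 1.57, 1.62, 1.74 and 1.76 in sensitive and 2.66, 2.36, 3.06 and 2.30 in resistant mice. The resistant arrays were the highest EC arrays. Tap1 rose by 0.72 ± 0.19 against vehicle (adjusted p = 0.00896). The immunoproteasome subunit Psmb9 was at 4.79, 5.48, 5.47 and 5.19 in vehicle, 5.01, 4.91, 5.19 and 5.57 in sensitive and 6.09, 6.52, 6.23 and 5.92 in resistant mice. Again no resistant array overlapped the others. Psmb9 rose by 0.96 ± 0.21 against vehicle (1.95-fold, adjusted p = 0.00249). The other immunoproteasome subunits Psmb8 and Psmb10 rose by 0.91 and 0.82, and the constitutive subunits they replace, Psmb5, Psmb6 and Psmb7, rose by 0.60, 0.71 and 0.58; the difference between both sets was not tested. Of the rest, the proteasome activator subunits Psme1 and Psme2 rose by 0.67 and 1.05. The second TAP subunit Tap2 rose by 0.94. The loading proteins Tapbp and Tapbpl rose by 0.43 and 0.58. The trimming peptidase Erap1 rose by 0.59. Nlrc5, the class I transactivator, was 0.53 higher and not called (adjusted p = 0.119), and its other probe gave -0.08.

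Class II split by gene. H2-DMb1, a chain of the peptide-exchange factor, was at 4.598, 5.93, 6.25 and 5.94 in vehicle, 5.24, 5.77, 4.78 and 6.19 in sensitive and 6.45, 7.47, 7.52 and 7.27 in resistant mice. The resistant arrays did not overlap the others. H2-DMb1 rose by 1.497 ± 0.40 against vehicle (2.82-fold, adjusted p = 0.00856) and by 1.68 ± 0.40 against sensitive. H2-DMa, its partner chain, rose by 1.10, and the class II chains H2-Ab1 and H2-Eb1 by 0.80 and 1.19. H2-Aa, another class II chain, was at 1.98, 3.49, 4.07 and 3.90 in vehicle, 2.87, 3.39, 1.99 and 3.67 in sensitive and 3.35, 4.54, 5.20 and 4.82 in resistant mice. The vehicle and resistant arrays overlapped, and the difference of 1.12 ± 0.52 was not called (adjusted p = 0.0954). Cd74, the invariant chain that guides class II to its loading compartment, was at 6.77, 7.83, 8.33 and 8.21 in vehicle, 7.66, 8.00, 6.89 and 8.07 in sensitive and 7.47, 8.91, 9.12 and 9.02 in resistant mice. Resistant mouse 1 lay apart from the other 3 resistant mice, and the difference of 0.84 ± 0.43 was not called (adjusted p = 0.128). Ciita, the class II transactivator, was at -2.83, -1.38, -2.13 and -2.28 in vehicle, -2.68, -2.31, -2.92 and -1.66 in sensitive and -3.24, -2.12, -2.21 and -0.68 in resistant mice. The groups overlapped and differed by 0.097 ± 0.48 (adjusted p = 0.885).

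H2-Oa and H2-Ob form H2-O, an inhibitor of H2-DM found mainly in B cells. H2-Oa differed by -0.023 ± 0.37 and was not called. H2-Ob, on its brighter probe, was at -0.74, -1.501, -1.21 and -1.27 in vehicle, -1.46, -1.45, -1.52 and -1.38 in sensitive and -4.03, -3.53, -3.04 and -2.84 in resistant mice. All resistant arrays were the lowest, and 3 of 4 were well above background. H2-Ob fell by 2.18 ± 0.25 (adjusted p = 1.53e-05), while its other probe differed by 0.77 the other way and was not called. Of 8 B cell markers 4 were lower and 0 higher, with a median of -0.94, where 26.3% of all genes were lower and the dimmest 25% of genes in EC had a median of -1.34. Their mean level ran from -4.08 to -3.16 in resistant against -3.22 to -1.01 in vehicle mice. Blk and Fcrla were not well above background in EC of any resistant mouse. The part of these markers in the H2-Ob value was not tested.

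Some of the GTPases attack the membranes of vacuoles that hold pathogens. Gbp3 was at 3.12, 3.89, 3.56 and 3.56 in vehicle, 3.55, 3.71, 4.15 and 3.94 in sensitive and 4.77, 4.69, 4.85 and 4.77 in resistant mice. Gbp3 rose by 1.24 ± 0.18 against vehicle (2.36-fold, adjusted p = 1.40e-04), with no overlap between the groups. Gbp2 was at 3.86, 4.69, 4.21 and 4.27 in vehicle, 3.90, 3.72, 4.45 and 4.69 in sensitive and 5.51, 5.18, 5.11 and 4.81 in resistant mice. The resistant arrays were again above the rest. Gbp2 rose by 0.89 ± 0.25 (adjusted p = 0.0111). Irgm2, a regulator of the immunity-related GTPases, rose by 1.28 ± 0.30 and Gbp4 by 1.23 ± 0.26. Igtp rose by 1.19, Irgm1 by 0.60 and Iigp1 by 0.89. Tgtp1, whose copy Tgtp2 is nearly identical, was 0.41 higher and not called.

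Cxcl9, a chemokine that draws activated T cells, was at 2.49, 3.46, 3.65 and 3.15 in vehicle, 3.32, 3.08, 4.88 and 4.00 in sensitive and 4.45, 4.49, 4.97 and 4.88 in resistant mice. The lowest resistant array lay above the highest vehicle array but not above all sensitive ones. Cxcl9 rose by 1.51 ± 0.37 (2.85-fold, adjusted p = 0.00512) against vehicle, the largest rise among the members. Calhm6, a membrane channel protein, was at -1.91, -1.71, -1.02 and -1.19 in vehicle, -1.87, -1.60, -1.10 and -1.32 in sensitive and -1.26, 0.0001, 0.37 and 0.24 in resistant mice. Resistant mouse 1 lay within the range of the other groups and the other 3 above it. Calhm6 rose by 1.29 ± 0.34 (adjusted p = 0.00835). Irf1, a transcription factor of the interferon response, was at 6.17, 6.84, 6.25 and 5.96 in vehicle, 5.90, 6.0002, 6.28 and 6.51 in sensitive and 7.12, 6.99, 7.09 and 7.002 in resistant mice. No resistant array overlapped the other groups. Irf1 rose by 0.74 ± 0.20 (adjusted p = 0.00864). Irf8, a factor of macrophage and dendritic cell development, rose by 0.80.

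**Figure D2:**
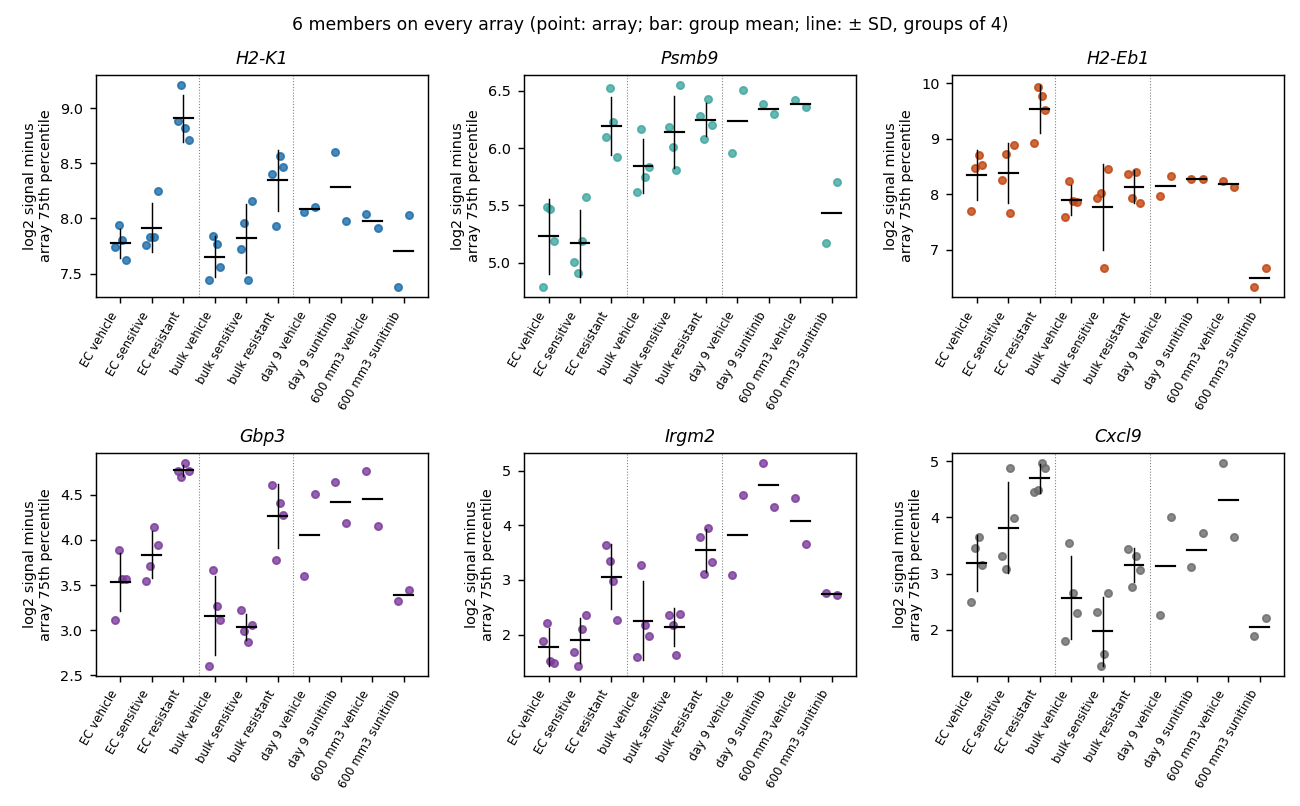
Relative log2 signal of H2-K1, Psmb9, H2-Eb1, Gbp3, Irgm2 and Cxcl9 on every array, by group; each point is 1 array, each bar a group mean and each line the SD of a group of 4. For H2-K1 the 4 EC resistant arrays sit between 8.71 and 9.21, above the 8 other EC arrays.

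How many members rose depended on how arrays were made comparable. The count was 28 with normexp background correction, 36 when arrays were scaled to their median (where the median of all genes was itself 1.38), 15 when scaled to the 75th percentile of probes well above background on all arrays, 10 with quantile normalisation and 9 on the deposited values. The median over members stayed above that of all genes in each: 0.75, 2.12, 0.49, 0.43 and 0.42. Of all genes called, 46.7% were higher here, against 77.3%, 84.1%, 16.1%, 49.9% and 51.7% in the same order. Calhm6, Cxcl9, Gbp3, Gbp4, H2-K1, H2-M3, Irgm2 and Psme2 were called higher, and H2-Ob lower, in all 6 scalings. The difference also ran with probe brightness: the median over the dimmest 25% of genes in EC was -1.34 and over the brightest 10% 0.55. The brightest 10% held 23 members, with a median of 0.89, of which 22 exceeded the median of those genes.

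**Figure D3:**
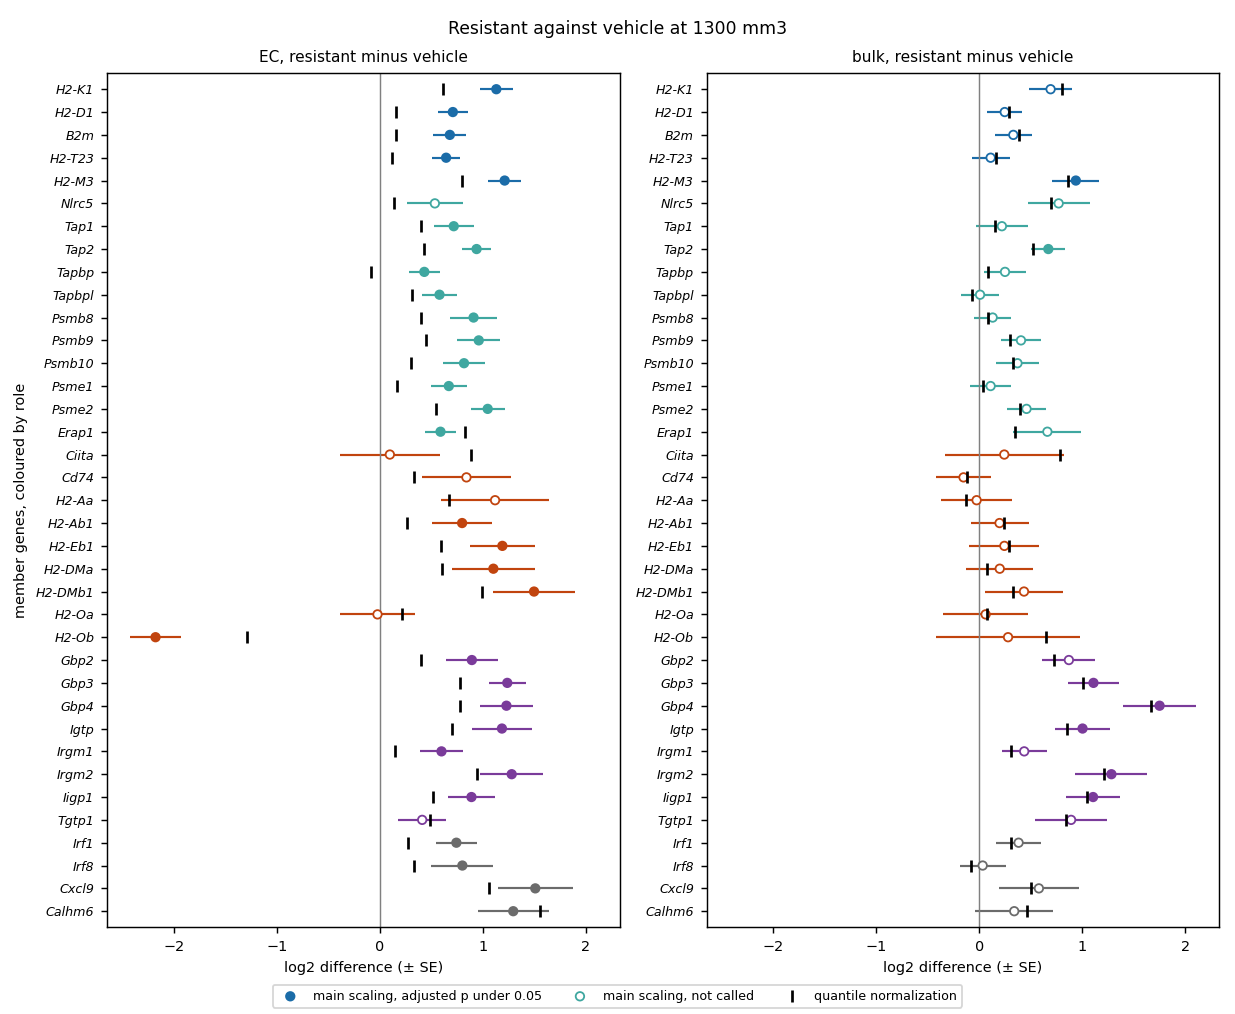
Log2 difference, resistant minus vehicle, with SE, of each member in the EC fraction and in bulk; filled points were called, open ones not, colours mark roles, and black ticks give the value under quantile normalisation. In EC 30 members were called higher and H2-Ob lower, and in bulk 7 were called higher.

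Against sensitive mice, which received the same drug, 27 members rose and 1 fell in the EC fraction, where 21.8% of all genes rose and 27.6% fell. The median was 0.88, against 0.11 for all genes. All 5 class I and all 11 peptide supply genes rose, with 4 of 9 class II genes, 5 of 8 GTPases and 2 of the 4 regulatory and signalling genes. H2-DMb1 rose by 1.68 ± 0.40, H2-Aa by 1.496 ± 0.52 and Calhm6 by 1.31 ± 0.34. Cxcl9 (0.88, adjusted p = 0.0651), Cd74, Ciita, H2-Ab1, H2-Oa, Iigp1, Irf8, Irgm1 and Tgtp1 were not called. H2-Ob fell by 1.91 ± 0.25. Calhm6, Gbp3, H2-DMb1, H2-K1, H2-M3, Psmb9 and Tap1 were called higher in all 6 scalings. Endothelial markers were lower for 11 of 12 genes in this comparison, and their part in the member values was not tested. Of the pathway genes Socs1 and Cxcl10 rose by 0.77 and 0.97. Not called were differences of 0.14 for Ifng, 0.19 for Ifngr1, 0.61 for Ifngr2, 0.33 for Jak1, -0.16 for Jak2 and 0.39 for Cd274. Among the other listed genes 3 of 11 signalling genes, 9 of 16 targets, 14 of 18 class I processing genes and 4 of 15 class II genes rose, led by Irf9 (0.95), Gbp8 (1.35), Mr1 (0.83) and Rfxank (0.66). Both EC comparisons use the same resistant arrays.

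Between sensitive and vehicle mice no member was called in the EC fraction by limma, and no gene of any kind. Members ranged from -0.52 to 0.63, with a median of -0.02. An unadjusted p under 0.05 was reached by 2 members, both higher, and by 947 of all 17956 genes. In bulk again 0 members were called, with a range of -0.60 to 0.53. There 3 members and 901 of all 16985 genes reached an unadjusted p under 0.05. The 8 pathway genes followed by name were not called either. In EC the differences were 0.48 for Ifng, 0.11 for Ifngr1, -0.10 for Ifngr2, 0.0008 for Jak1, -0.14 for Jak2, 0.0005 for Socs1, 0.049 for Cd274 and 0.36 for Cxcl10. In bulk they were 1.70 for Ifng, 0.21 for Ifngr1, -0.19 for Ifngr2, -0.28 for Jak1, 0.042 for Jak2, 0.23 for Socs1, 0.056 for Cd274 and 0.49 for Cxcl10. A p above the threshold does not show that the groups were alike.

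Other genes of the interferon-gamma pathway were followed from a list of 11 signalling genes, 16 further targets, 18 class I processing genes and 15 class II genes. In EC of resistant against vehicle mice 3, 9, 14 and 6 of them rose, and only 1, the class II gene Marchf1, fell (-1.24 ± 0.22). Of all genes 23% rose and 26.3% fell. Ifng itself was at 1.15, 0.61, -1.12 and 0.86 in vehicle and 2.19, 1.39, 0.45 and -0.046 in resistant EC, and differed by 0.62 ± 0.62, not called. Its receptor genes Ifngr1 and Ifngr2 differed by 0.30 and 0.51, and the kinases Jak1 and Jak2 by 0.33 and -0.31; none was called. The feedback inhibitor Socs1 rose by 0.77 ± 0.21. Irf9, a DNA-binding factor of the interferon response, rose by 1.00 ± 0.16. Among targets the chemokine Cxcl10 rose by 1.32 ± 0.30 and Gbp5, Gbp8 and Gbp9 by 1.26, 1.18 and 0.70. The PD-1 ligand Cd274 differed by 0.44 and was not called. Ido1, a tryptophan-degrading enzyme, was well above background on 0 of 4 resistant, 1 of 4 vehicle and 4 of 4 sensitive EC arrays. In bulk it was so on 3 of 4 resistant, 0 of 4 vehicle and 1 of 4 sensitive arrays, and in the smaller tumours on 1 vehicle and 2 sunitinib arrays of 2 at day 9 and 1 and 0 of 2 at 600 mm3. Because whole groups had no array well above background, no difference is given for Ido1. Of the class I processing genes the chaperone Hspa5 rose by 1.02, the MR1 presenting molecule by 0.86 and Pdia3 by 1.12. Of 12 markers of T and NK cells, the known source of interferon-gamma, 0 were called higher and 2 lower, against 23% and 26.3% of all genes.

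Macrophage markers were higher for 3 of 11 genes in resistant EC against vehicle, where 23% of all genes were higher, and for 1 of 11 against sensitive, where 21.8% were. Against vehicle the 3 that rose were Adgre1 by 1.14, C1qc by 1.54 and Cx3cr1 by 1.93. The mean level of the 11 markers ran from 3.12 to 4.76 in vehicle and 3.98 to 4.78 in sensitive mice. It was 3.76, 5.30, 5.86 and 5.70 in resistant mice 1 to 4. Resistant mouse 1 overlapped the other groups, and the other resistant mice lay above them. The mean level of 12 dendritic cell markers ran from -0.12 to 0.75 in resistant, 0.13 to 0.89 in vehicle and 0.44 to 0.67 in sensitive EC. That of tumour epithelial markers was 4.27, 3.97, 3.01 and 2.39 in resistant mice 1 to 4. It ran from 2.78 to 4.28 in vehicle and 1.83 to 3.85 in sensitive EC. The part of these 3 marker lists in the member values was not tested. In these mixed samples more cells of a type and more RNA per cell cannot be told apart.

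In bulk of resistant tumours the members that rose were mainly GTPases. Against vehicle 7 members rose and 0 fell, where 1.65% of all genes rose and 5.93% fell. The median was 0.37, against 0.04 for all genes. Of the 8 GTPases 5 rose, with 1 of 5 class I genes and 1 of 11 peptide supply genes, and 0 of 9 class II genes. Gbp4 was at 1.98, 3.56, 2.54 and 2.58 in vehicle, 3.02, 2.72, 2.44 and 3.48 in sensitive and 4.93, 3.94, 4.59 and 4.19 in resistant bulk. The resistant arrays lay above the other 8. Gbp4 rose by 1.75 ± 0.35 (3.36-fold, adjusted p = 0.0121). Irgm2 was at 1.59, 3.28, 2.18 and 1.99 in vehicle, 2.37, 2.18, 1.63 and 2.39 in sensitive and 3.79, 3.11, 3.94 and 3.32 in resistant bulk. Resistant mouse 2 overlapped vehicle mouse 3. Irgm2 rose by 1.28 ± 0.35 (adjusted p = 0.0495). Gbp3 was at 2.61, 3.67, 3.26 and 3.11 in vehicle, 3.22, 2.99, 2.87 and 3.06 in sensitive and 4.61, 3.78, 4.41 and 4.27 in resistant bulk. With no overlap, it rose by 1.11 ± 0.25 against vehicle. Iigp1 rose by 1.10, Igtp by 1.00, H2-M3 by 0.94 and Tap2 by 0.67. The 30 other members lay between -0.15 and 0.89. Among them H2-K1 stood at 7.44, 7.84, 7.77 and 7.56 in vehicle and 8.40, 7.94, 8.57 and 8.47 in resistant bulk, with 0.69 ± 0.21 (adjusted p = 0.0689). Pathway genes were not called, with differences of 0.98 for Ifng, 0.037 for Ifngr1, -0.35 for Ifngr2, -0.066 for Jak1, -0.17 for Jak2, 0.17 for Socs1, 0.72 for Cd274 and 0.81 for Cxcl10. Of the other listed genes Irf9, which binds the interferon-stimulated element, rose by 0.76, the GTPase Ifi47 by 1.00 and the proteasome activator Psme3 by 1.29, while Marchf1 differed by -1.59 and was lower. Of 11 macrophage markers 0 were called, and of 12 T and NK cell markers 0 were higher and 1 lower. The endothelial marker mean was -1.96, 1.57, -2.23 and -1.88 in vehicle and -0.48, -0.36, -0.55 and -0.70 in resistant bulk. Vehicle mouse 3 lay above all resistant mice and the other vehicle mice below them. The part of these markers in the member values was not tested. No member was called when arrays were scaled to their median. Without resistant mouse 2 the count was 14, and without resistant mouse 1 or 3, or vehicle mouse 2 or 5, it was 1. Without resistant mouse 4 it was 2, without vehicle mouse 4 it was 3 and without sensitive mouse 2 it was 4.

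Against sensitive bulk 6 members rose and 0 fell, where 2.88% of all genes rose and 8.38% fell, with a median of 0.36 against -0.02. Gbp4 rose by 1.498 ± 0.35, Irgm2 by 1.40 ± 0.35, Gbp3 by 1.23 ± 0.25, Erap1 by 1.16, Igtp by 0.97 and Gbp2 by 0.96. The first 3, Igtp and Gbp2 are GTPases. The 31 other members lay between -0.19 and 1.18. Of 12 endothelial markers 0 were called, with a median of 1.71, and their mean level ran from -2.54 to -1.09 in sensitive and -0.70 to -0.36 in resistant bulk, without overlap; their part in the member values was not tested. Pathway genes were not called, with differences of -0.72 for Ifng, -0.17 for Ifngr1, -0.17 for Ifngr2, 0.21 for Jak1, -0.21 for Jak2, -0.054 for Socs1, 0.66 for Cd274 and 0.33 for Cxcl10. Irf9, Gbp8, Psme3, Mr1, Pdia3 and Rfxap rose by 0.71, 1.503, 1.43, 0.70, 0.88 and 0.96. The count was 15 without resistant mouse 2, 1 without resistant mouse 1 or 3, and 2 without resistant mouse 4. It was 1 without sensitive mouse 4, 2 without sensitive mouse 3 and 3 without vehicle mouse 4 or 5. Whether the resistant effect differs between fractions was tested in 1 model: 0 members were called, with 9 higher in EC and 1 lower at an unadjusted p under 0.05, and a median of 0.44 against 0.014 for all genes. On the deposited values the member median was -0.015 (0.059 for all genes) and with quantile normalisation 0.0078 (0.087 for all genes), with H2-Ob called lower in both. No pathway gene was called in this difference, with -0.36 for Ifng, 0.26 for Ifngr1, 0.86 for Ifngr2, 0.40 for Jak1, -0.13 for Jak2, 0.60 for Socs1, -0.28 for Cd274 and 0.51 for Cxcl10. Over all genes 0.0109% were called higher and 0.29% lower, and 3271 of 18297 reached an unadjusted p under 0.05. So the larger count in EC is not shown to be a larger effect. For the sensitive effect 0 members were called. At an unadjusted p under 0.05, 1 member was higher, and 777 of all 18297 genes reached it. Pathway genes, none called, differed by -1.23 for Ifng, -0.096 for Ifngr1, 0.086 for Ifngr2, 0.28 for Jak1, -0.19 for Jak2, -0.23 for Socs1, -0.0071 for Cd274 and -0.13 for Cxcl10.

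EC and bulk of the same tumours were compared within 12 mice. Of the members 14 were higher in EC and 8 lower, where 23.1% of all genes were higher and 27.6% lower, with a median of 0.15 against -0.04. Class II was higher for 6 of 9 genes and lower for 1, while peptide supply was lower for 5 of 11 and higher for 0. Cxcl9 was higher in EC in 11 of 12 mice, by 0.71, -0.09, 0.99 and 0.86 in vehicle, 1.01, 1.72, 3.33 and 1.34 in sensitive and 1.01, 1.72, 1.65 and 1.81 in resistant mice. The mean was 1.34 ± 0.19 (adjusted p = 1.58e-04). Sensitive mouse 4 had the largest difference. Calhm6 was higher in 11 mice, by -0.0043, 0.39, 1.37 and 0.99 in vehicle, 0.55, 1.85, 1.04 and 1.54 in sensitive and 0.54, 0.84, 2.27 and 2.92 in resistant mice. The mean was 1.19 ± 0.22. H2-Ob differed by 1.49, 3.41, 2.67 and 1.88 in vehicle, 1.60, 1.62, 1.55 and 1.70 in sensitive and -0.01, -2.44, 1.25 and 0.83 in resistant mice, a mean of 1.30 ± 0.28; the resistant values were the lowest as a group. The class II chains H2-Ab1, H2-Eb1 and H2-Aa were 0.84, 0.82 and 0.62 higher, Cd74 0.56 and H2-DMa 0.53. H2-M3 and B2m were 0.79 and 0.51 higher, Irf8 0.48, and Iigp1, Gbp3 and Gbp4 0.59, 0.56 and 0.51.

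Of the 8 lower members 5 belong to peptide supply and loading. H2-Oa was higher in 0 of 12 mice, with -0.52, -0.86, -0.74 and -1.36 in vehicle, -0.93, -0.87, -1.82 and -1.21 in sensitive and -0.89, -0.73, -1.18 and -1.01 in resistant mice. The mean was -1.01 ± 0.11 (adjusted p = 2.98e-05). Tapbpl differed by -1.15, -0.51, -0.81 and -1.03 in vehicle, -1.46, -1.06, -0.87 and -1.37 in sensitive and -0.47, 0.17, -0.058 and -0.83 in resistant mice, a mean of -0.79 ± 0.11. Psmb8 differed by -1.34, -0.65, -0.81 and -0.86 in vehicle, -1.29, -1.45, -1.03 and -1.08 in sensitive and -0.40, 0.47, -0.27 and -0.33 in resistant mice, a mean of -0.75 ± 0.10. Over the 12 mice the difference ran from -0.13 to 1.28 (median 0.17) for H2-K1, 0.19 to 1.22 (median 0.37) for B2m, -0.80 to 2.08 (median 0.52) for H2-Aa and -0.76 to 1.72 (median 0.55) for Cd74. B2m was higher in EC in 12 mice. The difference ran from -1.59 to 2.90 (median 0.36) for Ciita, -0.996 to 0.66 (median -0.26) for Tap1, -1.18 to 0.44 (median -0.64) for Psmb9, -0.57 to 1.14 (median 0.085) for Irf1 and -1.09 to 0.057 (median -0.47) for Gbp2.  Psme1 differed by -0.64, Psmb9 by -0.55, Psmb10 by -0.31, Gbp2 by -0.47 and Igtp by -0.41. Calhm6, Cxcl9 and H2-Ob were higher, and H2-Oa and Tapbpl lower, in all 6 scalings. Ciita, Erap1, H2-D1, H2-DMb1, H2-K1, H2-T23, Irf1, Irgm1, Irgm2, Nlrc5, Psme2, Tap1, Tap2, Tapbp and Tgtp1 were not called. Ifng differed by -2.48 ± 0.38 and was lower in EC, while Cd274 and Cxcl10 were higher by 1.53 ± 0.17 and 1.60 ± 0.20. Jak1 was 0.33 higher and Jak2 differed by -0.52, both called. Socs1 (-0.074), Ifngr1 (0.23) and Ifngr2 (0.071) were not called. EC and bulk of sensitive and vehicle mice lay on separate slides, so slide and fraction cannot be told apart there. Of the other listed genes 4 signalling genes were higher and 2 lower, 6 targets higher and 1 lower, 3 class I processing genes higher and 6 lower, and 6 class II genes higher and 3 lower. Of all genes 23.1% were higher and 27.6% lower. Gbp5 was 1.83 higher, Psme3 1.71, the lysosomal proteases Lgmn and Ctss 2.19 and 2.32, and the costimulator Cd86 2.37. Of 12 T and NK cell markers 9 were lower in EC, against 27.6% of all genes.

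**Figure D4:**
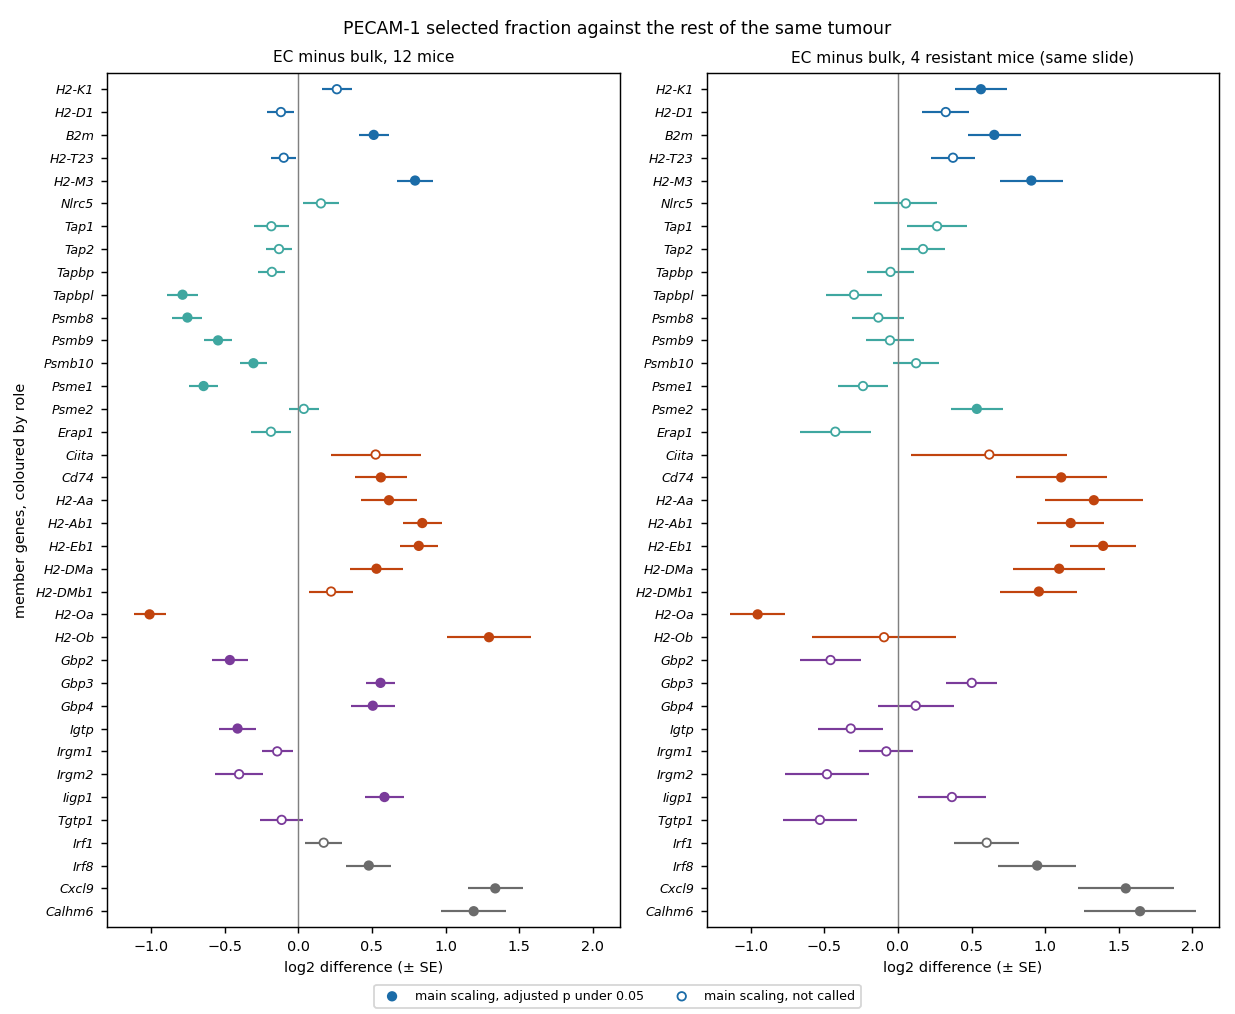
Log2 difference of each member, EC minus bulk within mice, with SE, over 12 mice and over the 4 resistant mice alone; filled points were called, open ones not, and colours mark roles. Over 12 mice 14 members were higher in EC and 8 lower, with Cxcl9 at 1.34 and H2-Oa at -1.01.

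Only in resistant mice did both fractions share a slide. There 13 members were higher in EC and 1 lower, where 14% of all genes were higher and 12.7% lower, with a median of 0.32 against -0.10. On the deposited values 8 were higher and 8 lower, with a median of -0.071 against -0.041, and with quantile normalisation 7 and 7, with a median of 0.086 against -0.025. Of the class II genes 6 of 9 were higher. H2-Eb1 was higher by 0.56, 2.00, 1.35 and 1.66 in the 4 resistant mice, a mean of 1.39 ± 0.23 (adjusted p = 0.00195). Calhm6 was 1.64 ± 0.38 higher and Cxcl9 1.55 ± 0.33, with the values of the 4 mice given above. H2-Aa, H2-Ab1, Cd74, H2-DMa and H2-DMb1 were 1.33, 1.17, 1.11, 1.10 and 0.96 higher. Irf8, H2-M3, B2m, H2-K1 and Psme2 were 0.95, 0.91, 0.65, 0.56 and 0.54 higher, and H2-Oa was lower by 0.95 ± 0.19. Calhm6, Cxcl9, H2-Aa, H2-Ab1 and H2-Eb1 were called in all 6 scalings. Without resistant mouse 3 or 4 the count of higher members was 4. Among pathway genes Cd274, Cxcl10 and Ifngr2 were 1.34, 1.98 and 0.62 higher, and Ifng was lower with -2.32. Not called were differences of 0.44 for Ifngr1, 0.50 for Jak1, -0.55 for Jak2 and 0.40 for Socs1. Macrophage markers were higher for 11 of 11 genes, and their part in the member values was not tested.

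In the smaller bulk tumours no member was called between sunitinib and vehicle by limma, averaged over both stages, with 9 lower and 0 higher at an unadjusted p under 0.05 and a median of -0.36. No gene of any kind was called, and 1725 of all 17454 genes reached an unadjusted p under 0.05. At 600 mm3 all 37 members had a lower mean with sunitinib, with a median of -0.95 against 0.04 for all genes. Both sunitinib arrays lay below both vehicle arrays for 30 of 37 members, as for 24.8% of all genes, and 28.3% of genes lay above. The median was -1.65 for class II, -1.77 for the regulatory and signalling genes, -1.30 for the GTPases, -0.49 for peptide supply and -0.26 for class I. H2-Eb1, Cxcl9, Calhm6 and H2-K1 are given as examples chosen after their values were seen. H2-Eb1 was at 8.24 and 8.12 in vehicle and 6.33 and 6.68 in sunitinib tumours. Cxcl9 was at 4.97 and 3.65 in vehicle and 1.89 and 2.20 in sunitinib tumours. Both genes were lower on each sunitinib array than on each vehicle array. Calhm6 was at 0.45 and -0.999 in vehicle and -4.37 and -5.02 in sunitinib tumours, a difference of -4.42 that was the largest of the members at this stage. H2-K1 was at 8.04 and 7.92 in vehicle and 7.38 and 8.03 in sunitinib tumours, which overlap. Pathway genes, none called over both stages, differed by -1.03 for Ifng, -0.14 for Ifngr1, -0.20 for Ifngr2, 0.002 for Jak1, 0.018 for Jak2, -0.47 for Socs1, -0.77 for Cd274 and -0.66 for Cxcl10. Ptprc, the pan-leukocyte marker, was at 2.10 and 2.04 in vehicle and 0.40 and 0.019 in sunitinib tumours. The macrophage marker mean was 3.71 to 3.77 in vehicle and 1.62 to 2.57 in sunitinib tumours. That of dendritic cells was -0.31 to 0.17 and -1.74 to -1.40, that of T and NK cells -0.17 to 0.29 and -1.43 to -0.97, and that of endothelial cells 0.87 to 1.29 and -0.76 to -0.61. All 4 were lower with sunitinib, without overlap. Their part in the member values was not tested.

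At day 9, 8 of 37 members had a lower mean with sunitinib and the others a higher one. The median was 0.25, against 0.015 for all genes. A lower mean was seen for 1 of 8 GTPases, 1 of 11 peptide supply genes and 0 of 4 regulatory and signalling genes. It was seen for 3 of 5 class I and 3 of 9 class II genes. Both sunitinib arrays were below both vehicle arrays for 4 members and above for 7, against 14.7% and 20.6% of all genes. H2-D1, H2-T23, Cd74 and H2-Ab1 were below, and Nlrc5, Tapbp, Psmb8, Psme1, Psme2, H2-DMb1 and H2-Ob above. The difference of the 600 mm3 effect from the day 9 effect had a median of -1.35 and 0 members called, where 0.12% of all genes were higher and 0.0344% lower. At an unadjusted p under 0.05, 21 members were lower and 0 higher, and 2673 of all 17454 genes reached it in either direction. H2-Eb1 had the smallest adjusted p of the members by limma (0.108). None of the pathway genes was called, with differences of -2.72 for Ifng, -0.086 for Ifngr1, -0.31 for Ifngr2, 0.20 for Jak1, -0.97 for Jak2, -2.01 for Socs1, -1.16 for Cd274 and -3.16 for Cxcl10.

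**Figure D5:**
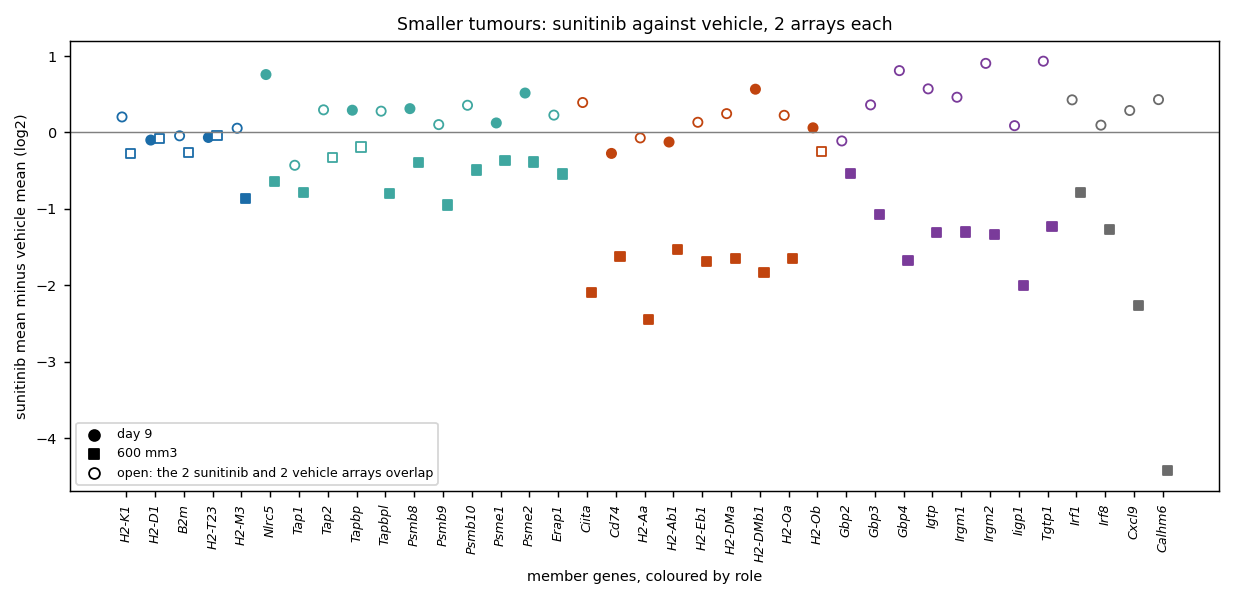
Log2 difference of each member, sunitinib minus vehicle, at day 9 and at 600 mm3 in bulk tumours; each point is the difference of 2 means of 2 arrays, with no error, open where the arrays overlap, and colours mark roles. At 600 mm3 all 37 members lie below 0, with a median of -0.95.

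Vehicle tumours of 1300 mm3 and the smaller ones were set apart by slide as well as size. Bulk at 1300 mm3 was the tissue left after bead selection, while the labels of the smaller tumours name no fraction. Slide, size and a possible difference in preparation cannot be told apart here. The endothelial marker mean was -1.96, 1.57, -2.23 and -1.88 in large, 1.09 and 1.37 in day 9 and 0.87 and 1.29 in 600 mm3 vehicle tumours. In bulk of the large tumours 0 members were higher and 6 lower, against 4.42% and 5.11% of all genes, with a median of -0.39. Of 12 endothelial markers 6 were lower and 0 higher, with a median of -2.56; of 11 macrophage markers 1 was lower, with a median of -1.27; and of 7 neutrophil markers 3 were higher, with a median of 1.91. Their part in the member values was not tested. Iigp1 was at 1.34, 2.31, 2.10 and 1.76 in large, 2.75 and 4.37 in day 9 and 4.56 and 3.32 in 600 mm3 tumours. The large tumours lay below all 4 smaller ones, and the difference was -1.87 ± 0.38. Gbp4 was at 3.62 and 4.78 in day 9 and 5.44 and 4.20 in 600 mm3 tumours and differed by -1.85 ± 0.41. Irgm2 was at 3.099 and 4.56 in day 9 and 4.49 and 3.66 in 600 mm3 tumours and differed by -1.69 ± 0.38. Their bulk values at 1300 mm3 are given above. These were followed by H2-M3 (-1.13), Gbp3 (-1.10) and Psme2 (-0.71). The count was 0 when arrays were scaled to their median. Among pathway genes, not called were differences of 1.92 for Ifng, 0.15 for Ifngr1, 0.078 for Ifngr2, -0.0065 for Jak1, -0.19 for Jak2, -0.23 for Socs1, -0.22 for Cd274 and 0.28 for Cxcl10. Leaving out 1 array moved the count to between 1 and 11: 1 without 600 mm3 vehicle mouse 3, 2 without bulk vehicle mouse 2 or day 9 vehicle mouse 2, 3 without bulk vehicle mouse 5, 9 without bulk vehicle mouse 3 and 11 without bulk resistant mouse 2.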

How the data were processed

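RNA of 32 samples from separate mice, with both fractions of a tumour sharing a mouse at 1300 mm3, was measured on single-colour Agilent arrays. Per the file headers, the deposited scanner files hold intensity values from Agilent Feature Extraction 10.7.3.1, with background subtracted and no scaling between arrays; the submitters' processing notes name version 9.1. A deposited set of intensity values for all samples, normalised by the authors, was an alternative; its scale and centring are not given in the sources used here. Its column medians lie between 120 and 125.

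Probes were named through RefSeq accessions (GRCm38.p6): 26582 of 55681, for 20145 genes, each represented by its brightest probe over all arrays. Replicate spots were averaged, log2 was taken, and the 75th percentile of each array's log2 values was subtracted. A gene was tested where its probe was well above background on at least 4 arrays of the fit (2 for the smaller tumours). Groups were taken from the labels. Tests used limma 3.58.1 (lmFit, contrasts, eBayes) in R 4.3.3 with data.table (version 1.17.8), with Benjamini-Hochberg adjustment and a threshold of 0.05. EC, bulk, smaller tumours, both fractions together, and all bulk arrays were fitted apart, with 9, 9, 4, 9 and 13 residual degrees of freedom. EC and bulk were paired by mouse, as the labels number them; the deviations of both fractions of a mouse correlated at -0.073 to 0.44.

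The members and gene lists were chosen with earlier results of these data known. All members are named. Values of every array are given for the 3 called members with the largest rise and fall of a comparison and, in EC, for H2-K1, B2m, H2-Aa, Cd74, Ciita, Tap1, Psmb9, Irf1, Gbp2 and Cxcl9. Ifng, Ifngr1, Ifngr2, Jak1, Jak2, Socs1, Cd274 and Cxcl10 are given in each comparison, Ido1 by the number of arrays well above background only, and up to 3 other genes per list and comparison by smallest p. Some genes that this rule names are not reported here.

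Alternatives were normexp background correction (offset 50), quantile normalisation, scaling to the median, the deposited values, other probe and filter rules, other sets of arrays in the fit, the mouse number as a block, and leaving out each array. The files used here lack mean signals, so normexp ran on median signals. Scaling to the 75th percentile of probes well above background on all arrays was added after the data were seen. The number of arrays limits the precision. The fits were tested on simulated data. Python 3.11.15 with pandas 2.3.3, numpy 2.4.6 and matplotlib 3.10.9 made the tables and figures.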

Additional observations from a re-analysis of the deposited data

Results flagged for a closer look

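Of 222 groups of 4 arrays tested by Dixon's criterion, 8 held an array far from the rest, where chance at 1 in 20 gives 11.1. In EC of sensitive mice, mouse 5 was the highest for H2-K1 (8.24, next 7.83) and for Psme1 (5.70, next 5.37). Tap1 was lowest on EC of vehicle mouse 2 (1.46, next 2.00) and on bulk of vehicle mouse 3 (1.62, next 2.25). Psmb10 was lowest on bulk of sensitive mouse 4 (6.79, next 7.21). Ciita was highest on bulk of resistant mouse 2 (-0.53, next -3.30), the array with 83.5% of probes well above background. In EC of resistant mice Cd74 was lowest in mouse 1 (7.47, next 8.91) and H2-Oa highest in mouse 2 (-0.43, next -0.88).

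In the smaller tumours both sunitinib arrays lay above both vehicle arrays at day 9 and below them at 600 mm3 for 5 members. Of all genes 20.6% lay above at day 9 and 24.8% below at 600 mm3, and the share with both was not counted. The differences at 600 mm3 and at day 9 were -0.642 and 0.758 for Nlrc5, -0.393 and 0.312 for Psmb8, -0.362 and 0.125 for Psme1, -0.385 and 0.516 for Psme2, and -1.84 and 0.566 for H2-DMb1. They are listed by the order of arrays alone, which is not a test; the limma test of the difference between both stages called none of the 37 members.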

How the results depend on the processing

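The choice of scaling moved most counts, and slide, resistance and the low share of probes above background cannot be told apart. Of 114 called member values, 23 kept their call in every setting run; over genes and settings 2112 values kept it, 416 lost it and 3 reversed: B2m in EC of resistant against sensitive mice (-0.046 on the deposited values), Tapbp against vehicle (-0.085 with quantile normalisation) and H2-K1 in EC against bulk of resistant mice (-0.071 on the deposited values). In EC of resistant mice members higher against vehicle were 9 on the deposited values, 10 with quantile normalisation and 15 with the 75th percentile of probes well above background on all arrays, and against sensitive mice 11, 11 and 14; 1 was lower in both, but 0 with only genes well above background on every array and 0 with the mean of all probes of a gene. In bulk, resistant against vehicle gave 0 with median scaling, 1 with both groups compared alone and 0 with the mouse number as a block. Resistant against sensitive bulk gave 0 with median scaling, 12 on the deposited values, 11 with quantile normalisation, 3 without a filter, 3 alone and 0 with the block. EC against bulk gave 3 higher and 2 lower with median scaling. In resistant mice EC against bulk gave 5 higher and 0 lower with median scaling, 8 and 8 on the deposited values and 7 and 7 with quantile normalisation; 2 were lower with normexp, 6 with the 75th percentile of detected probes and 0 without the mouse block, and 4 were higher alone. The resistant effect in EC against bulk gave 1 lower on the deposited values and with quantile normalisation. Large against small vehicle bulk gave 0 lower with median scaling and 2 with the replicate number as a block. The cause was not tested.

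Leaving out 1 array, members higher ranged from 25 to 31 and lower from 1 to 1 in EC of resistant against vehicle mice, 23 to 28 and 1 to 1 against sensitive, 1 to 14 and 0 to 0 in bulk against vehicle, 1 to 15 and 0 to 1 against sensitive, 11 to 16 and 8 to 10 in EC against bulk, and 4 to 14 and 1 to 4 of these in resistant mice. Lower members ranged from 1 to 11 for large against small tumours and from 0 to 1 for sunitinib in the smaller ones. Over the other settings, all genes called ranged from 5120 to 14549 (8843 as reported) in EC of resistant against vehicle mice, 5131 to 14318 (8872) against sensitive, 490 to 2310 (1287) and 780 to 3123 (1913) in bulk, 4531 to 10323 (9268) in EC against bulk, 1785 to 6386 (4880) in resistant mice, 0 to 183 (55) for the resistant effect between fractions, 65 to 3394 (1683) by size and 0 to 38 (27) between stages. Equal mouse numbers in different treatments are different mice, so the numbers do not pair them. Their deviations correlated at -0.31 to 0.27 in EC, -0.30 to 0.29 in bulk, 0.074 to 0.15 in the smaller tumours and -0.28 to 0.28 over all bulk arrays. Both fractions of a mouse correlated at -0.073 to 0.44, an overlapping range, so these correlations alone cannot tell pairing from none. Values of dim probes such as H2-Ob are limited by signal over background.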
